A study of Homo sapiens with 7 samples.

Results

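Among the microRNAs of this capture experiment, 10 are textbook markers of tissues other than melanoma, and their reads were followed through all 7 libraries. They are the epithelial hsa-miR-141-3p, hsa-miR-200b-3p and hsa-miR-194-5p, the blood and vessel hsa-miR-486-5p and hsa-miR-126-5p, the muscle hsa-miR-1-3p and hsa-miR-133a-3p, and the neuronal hsa-miR-9-5p, hsa-miR-153-3p and hsa-miR-128-3p, written without the species prefix from here on. They were chosen by name, with earlier results of these data known. The presence of all 10 among the 480 mature names of the deposited table is therefore not a result. Where a name had several hairpin rows, the row with the most RPM, reads scaled to a library total of 1000000, stood for it. RNA came from A375, a human melanoma cell line. The cells were crosslinked with 1% formaldehyde for 10 min, 24 h after seeding, and taken through miR-CATCHv2.0, which pulls down an mRNA with probes and sequences the microRNAs held on it. The 3 ODD and 3 EVEN captures used probe sets directed at the 3′ UTR of the X1 form of the mRNA for BRAF, a kinase often mutated in melanoma, and are together called X1 probes. A single capture used scrambled probes. All 7 came from 1 cell line under the same culture and crosslinking, so the scrambled capture is the sole control, and its own spread was not measured.

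A mature microRNA guides an Argonaute protein to mRNAs that pair with its seed, bases 2 to 8 from its 5′ end, and lowers their translation and stability. Many microRNAs are made in nearly all cells, but some are made at high level mainly in a single tissue, and those serve as markers of that tissue. The miR-200 family, to which miR-141-3p and miR-200b-3p belong, holds epithelial cells in their state by repressing ZEB transcription factors. miR-1 and miR-133a are made from shared transcripts in heart and skeletal muscle, and miR-9 is abundant in neural progenitors and brain.

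The mature sequences show how far apart the markers are, which bears on whether a read could be assigned to the wrong name. RefSeq (GRCh38.p14) held 9 of the 10, printed 5′ to 3′ with the seed in capitals.
hsa-miR-141-3p: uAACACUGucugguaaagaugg
hsa-miR-200b-3p: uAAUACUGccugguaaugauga
hsa-miR-194-5p: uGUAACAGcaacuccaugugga
hsa-miR-126-5p: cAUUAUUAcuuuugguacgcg
hsa-miR-1-3p: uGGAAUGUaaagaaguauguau
hsa-miR-133a-3p: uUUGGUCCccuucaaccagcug
hsa-miR-9-5p: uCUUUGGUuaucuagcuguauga
hsa-miR-153-3p: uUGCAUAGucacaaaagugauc
hsa-miR-128-3p: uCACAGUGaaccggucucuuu

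The 9 sequences had 9 different seeds. miR-141-3p and miR-200b-3p were the closest pair, with 4 of 22 positions different and 1 of them in the seed, C4U counted from the 5′ end of miR-141-3p. Compared base by base from the 5′ end, with a difference in length added, with the 406 table names that had a RefSeq sequence, each of the other 7 sequences differed from its nearest name at 10 or 11 positions. None of those names shared a seed with a marker.

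Several markers are encoded at more than 1 place, so a mature read does not say which gene made it. miR-141-3p lies at chr12:6964155-6964176 within MIR200CHG and miR-200b-3p at chr1:1167160-1167181 within MIR200BHG, both on the plus strand and both host genes long non-coding RNAs. miR-194-5p has 2 loci, chr1:220118206-220118227 and chr11:64891404-64891425. miR-126-5p lies at chr9:136670616-136670636 within the body of EGFL7, a gene of endothelial cells. miR-1-3p and miR-133a-3p have a locus each on chromosome 18 (chr18:21829015-21829036 and chr18:21825712-21825733). There both microRNAs lie on the minus strand, within the long non-coding MIR133A1HG and also within the body of MIB1. Their other loci are on chromosome 20 within MIR1-1HG (chr20:62554351-62554372 and chr20:62564970-62564991). miR-9-5p has 3 loci, each within a long non-coding host gene (chr1:156420392-156420414, chr5:88666902-88666924 and chr15:89368032-89368054). In the RefSeq entries used, miR-153-3p has a locus at chr2:219294126-219294147 within PTPRN, a gene of neuroendocrine secretory granules. Loci missing from those entries are not listed here. miR-128-3p lies within R3HDM1 at chr2:135665446-135665466 and within ARPP21 at chr3:35744527-35744547.

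The libraries were shallow. Whole reads could be recovered from every deposited value, and depth over all rows ran from 4049 to 35508 reads with X1 probes and was 4647 reads with scrambled probes. A single read was therefore worth 28.2 RPM at the greatest depth and 247 RPM at the least. The 95% intervals given for 1 library are exact (Clopper-Pearson), computed on reads. A value of 0 reads was given a floor of 3 reads, which is 646 RPM in the scrambled library. The exact interval for 0 reads there reaches higher, to 794 RPM. Interval and floor cover counting error only. The labels do not say that the captures came from separate cultures, so p-values measure the spread between these captures. The pigment cell and melanoma microRNAs used to check the cell line had reads for 5 of 8 names. Their summed level was 29811 to 40751 RPM with X1 probes, against 37874 RPM with scrambled probes. It was led by miR-222-3p (17169 ± 4623 RPM with X1 probes, SD, n = 6, against 23241 RPM with scrambled probes). Next with X1 probes came miR-221-3p (9132 RPM), miR-146a-5p (5119 RPM) and miR-204-5p (2286 RPM). miR-509-3p had 5 reads with X1 probes and 1 with scrambled probes. miR-211-5p, a defining pigment cell microRNA, miR-508-3p and miR-514a-3p matched none of the 480 names.

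The 10 markers together were a very small part of what was captured. They held 76 reads in the ODD libraries, 43 in the EVEN libraries and 12 in the scrambled library. Values of 3 captures are listed in the order of replicates 1 to 3 throughout. Their summed level was 1109, 1521 and 2470 RPM with ODD probes, 1291, 1242 and 2727 RPM with EVEN probes, and 2582 RPM with scrambled probes. As a share, that was 0.111% to 0.273% of reads with X1 probes and 0.258% with scrambled probes (exact 95% interval for scrambled 0.134% to 0.451%). For scale, miR-92a-3p, the most abundant name, averaged 147916 ± 10203 RPM (SD, n = 6) in X1-probe libraries, against 142673 RPM in the scrambled one. In bulk RNA a few cells with much of a microRNA cannot be told apart from many cells with little of it, and carry-over between samples was not tested.

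**Figure D1:**
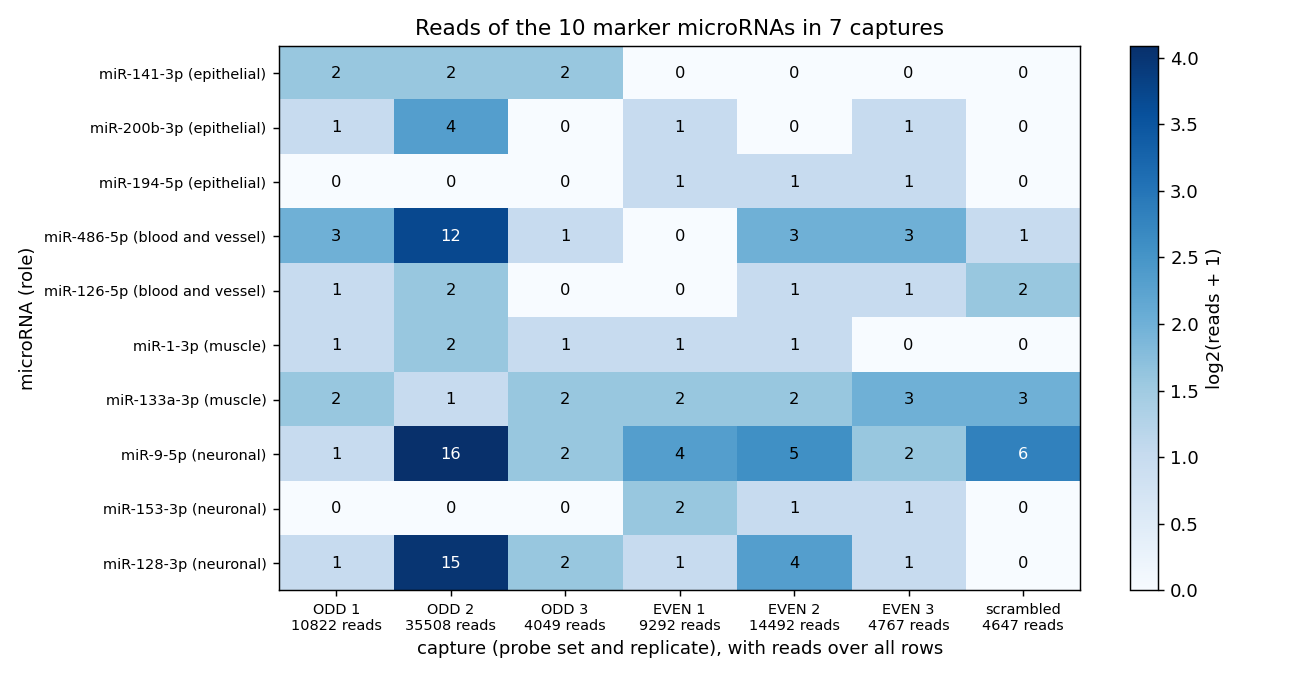
Recovered reads of each marker microRNA (rows, with role) in each capture (columns, with the reads over all rows), shaded by log2(reads + 1). Only miR-133a-3p and miR-9-5p have reads in all 7 captures, and the highest value is the 16 reads of miR-9-5p in ODD replicate 2.

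Ordered by mean RPM over the 6 X1-probe libraries (± SD), miR-9-5p came first with 372 ± 145, followed by miR-486-5p with 283 ± 205, miR-133a-3p with 282 ± 230.1 and miR-128-3p with 267 ± 164. The other 6 lay lower. They were miR-141-3p with 123 ± 196, miR-1-3p with 95.4 ± 83.0, miR-200b-3p with 87.1 ± 79.2, miR-153-3p with 82.3 ± 104, miR-126-5p with 71.3 ± 77.5 and miR-194-5p with 64.4 ± 84.2. Each neighbour in this order differed from the next by less than the SD of either. Over all 7 libraries the markers stood at ranks 96 (miR-9-5p) to 245 (miR-194-5p) of the 480 names, with means of 503 and 55.2 RPM at the ends. Of the 10, 9 lay above 58.7 RPM, the median of all 480 names, and miR-194-5p lay below it. The median name had 4 reads in all, and the median marker 7.

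The neuronal markers held the most reads, 58 with X1 probes and 6 with scrambled probes. miR-9-5p, which promotes neural differentiation, had 1, 16 and 2 reads with ODD probes, 4, 5 and 2 with EVEN probes and 6 with scrambled probes. In RPM these were 92.4, 451 and 494 with ODD probes, 430.5, 345 and 419.6 with EVEN probes, and 1291 with scrambled probes. All 6 X1-probe libraries lay below the scrambled one, and ODD replicate 1 was the lowest. The scrambled value had a 95% interval of 474 to 2808 RPM, whose lower end lay below the highest X1-probe value of 494 RPM.

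miR-128-3p, enriched in brain neurons, ran the other way. It had 1, 15 and 2 reads with ODD probes, 1, 4 and 1 with EVEN probes and 0 with scrambled probes. With X1 probes it averaged 267 ± 164 RPM (SD, n = 6), and its highest value, 494 RPM, was under the 646 RPM that 3 scrambled reads would give, so a fold cannot be stated. It was the sole marker with reads in all 6 X1-probe libraries and none in the scrambled one. miR-153-3p, a microRNA of neurons and neuroendocrine cells, had 0 reads in each ODD library, 2, 1 and 1 with EVEN probes and 0 with scrambled probes.

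Of the blood and vessel markers, miR-486-5p, abundant in red blood cells and also made in muscle, had 3, 12 and 1 reads with ODD probes, 0, 3 and 3 with EVEN probes and 1 with scrambled probes. The ODD values of 277, 338 and 247 RPM lay close together, while the EVEN values were 0, 207 and 629 RPM and enclosed them, and the scrambled library had 215 RPM. miR-126-5p, made in endothelial cells, had 5 reads with X1 probes, spread over 4 libraries at 1 or 2 reads each, and 2 reads with scrambled probes. Its X1-probe values of 0 to 209.8 RPM all lay below the scrambled value of 430.4 RPM, whose 95% interval was 52.1 to 1554 RPM.

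Both muscle markers had 3 reads or fewer in every library. Of the 2, miR-133a-3p, which acts in muscle cell growth, had 2, 1 and 2 reads with ODD probes, 2, 2 and 3 with EVEN probes and 3 with scrambled probes. Its reads stayed between 1 and 3 while the depth of the libraries ran from 4049 to 35508 reads. The deepest library, ODD replicate 2, held 42.5% of all reads but 6.67% of those of miR-133a-3p (1 of 15), against 44.4% of those of miR-9-5p, 52.2% of those of miR-486-5p and 62.5% of those of miR-128-3p. Of the 6 markers with 7 reads or fewer it held 0% for miR-194-5p and miR-153-3p, 28.6% for miR-126-5p, 33.3% for miR-1-3p and miR-141-3p and 57.1% for miR-200b-3p. No test of these shares was made. On the RPM scale miR-133a-3p therefore ran from 28.2 RPM in ODD replicate 2 to 629 RPM in EVEN replicate 3, with 646 RPM in the scrambled library. miR-1-3p, which promotes muscle differentiation, had 1, 2 and 1 reads with ODD probes, 1, 1 and 0 with EVEN probes and 0 with scrambled probes. Its row for the chromosome 20 hairpin held 2 reads in all, against 6 in the row used here.

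The epithelial markers had 16 reads with X1 probes and 0 with scrambled probes. miR-141-3p had 2 reads in each ODD library, which is 185, 56.3 and 494 RPM, and 0 reads in each EVEN library and in the scrambled one. miR-200b-3p had 1, 4 and 0 reads with ODD probes and 1, 0 and 1 with EVEN probes. The ODD and EVEN libraries of these relatives therefore overlapped for miR-200b-3p and not for miR-141-3p. miR-194-5p, a microRNA of intestine and liver, had 0 reads in each ODD library and 1 read in each EVEN library. In its other hairpin row, EVEN replicate 1 also had 0 reads.

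**Figure D2:**
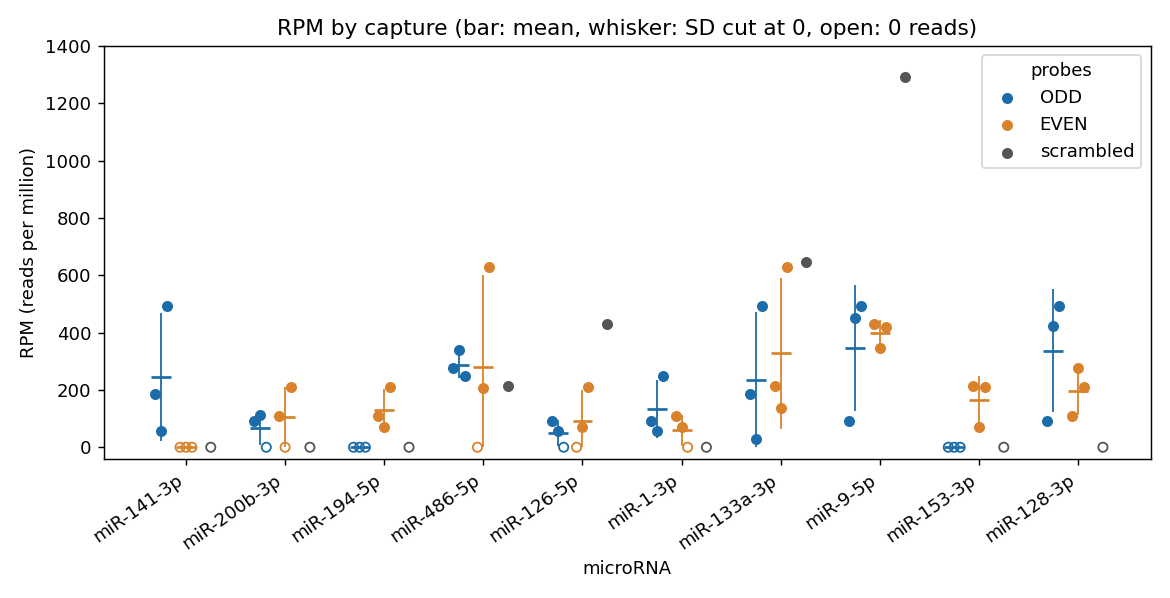
RPM of each marker microRNA in each capture, by probe set (ODD, EVEN, scrambled from left to right); bars are means and whiskers SD (n = 3, cut at 0), open points are libraries with 0 reads. The scrambled library is highest for miR-9-5p at 1291 RPM, while the ODD and EVEN values overlap for all but miR-141-3p, miR-194-5p and miR-153-3p.

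The first comparison asks whether any marker was captured more with X1 probes than with scrambled probes. None of the 10 passed limma on log2(RPM + 10) at an adjusted p of 0.05, and 1 did at an unadjusted p under 0.05, miR-128-3p. Among all 242 names tested, 0.826% passed as higher and 0% as lower after adjustment, and at the unadjusted threshold 7.02% were higher and 1.65% lower. The log2 difference of miR-128-3p was 4.55 (95% interval 0.57 to 8.53, limma adjusted p = 0.426, above 0 in 6 of 6 libraries). With 0 scrambled reads this size is set by the pseudocount of 10 RPM, and it was 1.75 at a pseudocount of 100 RPM. A name had to reach 10 RPM in at least 3 libraries to be tested, and only 1 library was scrambled. A name with reads in the scrambled library alone could not enter, so the filter favours higher names. The direction of miR-128-3p, at 0 scrambled reads, was thus fixed in advance. Over the other settings its adjusted p by limma ran from 0.0602 to 0.701. The lowest came with hairpin rows summed, where its rows of 24 and 22 reads can count the same reads again. miR-9-5p had a log2 difference of -1.93 (95% interval -4.18 to 0.33, limma adjusted p = 0.668, below the scrambled value in 6 of 6 libraries). miR-133a-3p had -1.66 (95% interval -4.87 to 1.55), and -0.21 with the description number as a replicate block (limma adjusted p = 1). The log2 difference was -3.21 (-8.29 to 1.88) for miR-126-5p and -0.31 (-4.18 to 3.56) for miR-486-5p. The 5 other markers had 0 scrambled reads and log2 differences between 1.83 and 2.88, each with an interval that held 0. Their direction was fixed in the same way.

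Read as non-overlap with the scrambled library, miR-9-5p, miR-133a-3p and miR-126-5p lay below it in all 6 X1-probe libraries, as did 22.7% of the 242 names. miR-128-3p lay above it in all 6, as did 11.2% of the names. The median log2 difference of the 10 markers was 1.91, against 0.096 over all names tested. There were 6 markers with 0 scrambled reads, so this median follows the pseudocount.

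The second comparison sets the ODD captures against the EVEN captures of the same transcript. None of the 10 markers passed limma, while 3 did at an unadjusted p under 0.05, miR-141-3p as higher and miR-194-5p and miR-153-3p as lower with ODD probes. Over all 242 names 0% passed as higher and 0.413% as lower after adjustment, and at the unadjusted threshold 2.07% were higher and 2.48% lower. In these 3, and in no other marker, the ODD values were separate from the EVEN values. They entered the test through 1 probe set alone, so this separation was fixed in advance. All 3 ODD libraries lay above all 3 EVEN libraries for 3.72% of the names tested, and below them for 3.31%. The log2 differences were 4.22 for miR-141-3p (95% interval 0.79 to 7.66), -3.67 for miR-194-5p (-6.93 to -0.40) and -3.98 for miR-153-3p (-7.32 to -0.63), each with a limma adjusted p of 0.909. Because 1 probe set had 0 reads of each, these sizes are also set by the pseudocount, and they were 1.575, -1.15 and -1.35 at a pseudocount of 100 RPM.

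Each of these 3 rests on at most 6 reads in 3 libraries of 1 probe set. A name was tested if it reached 10 RPM in at least 3 of 7 libraries, so all 10 markers were tested, but these 3 entered through 1 probe set alone and had to differ. Of the 242 names, 2 had reads in all 3 ODD libraries and in no other, and 3 in all 3 EVEN libraries and in no other. The exact two-sided permutation test on RPM gave p = 0.1 for each of the 3, the smallest that 3 against 3 allows, and 0.4 to 1 for the remaining 7. For miR-9-5p, which had the most reads, the log2 difference was -0.50 (95% interval -2.20 to 1.204). Its mean was 346 ± 220.4 RPM over the ODD libraries and 398 ± 46.5 RPM over the EVEN libraries (SD, n = 3 each). The log2 interval of miR-9-5p was the narrowest of the 10, and a difference within such an interval was not detectable at this depth. Over the 10 the median log2 difference was -0.40, against 0.072 over all names tested.

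**Figure D3:**
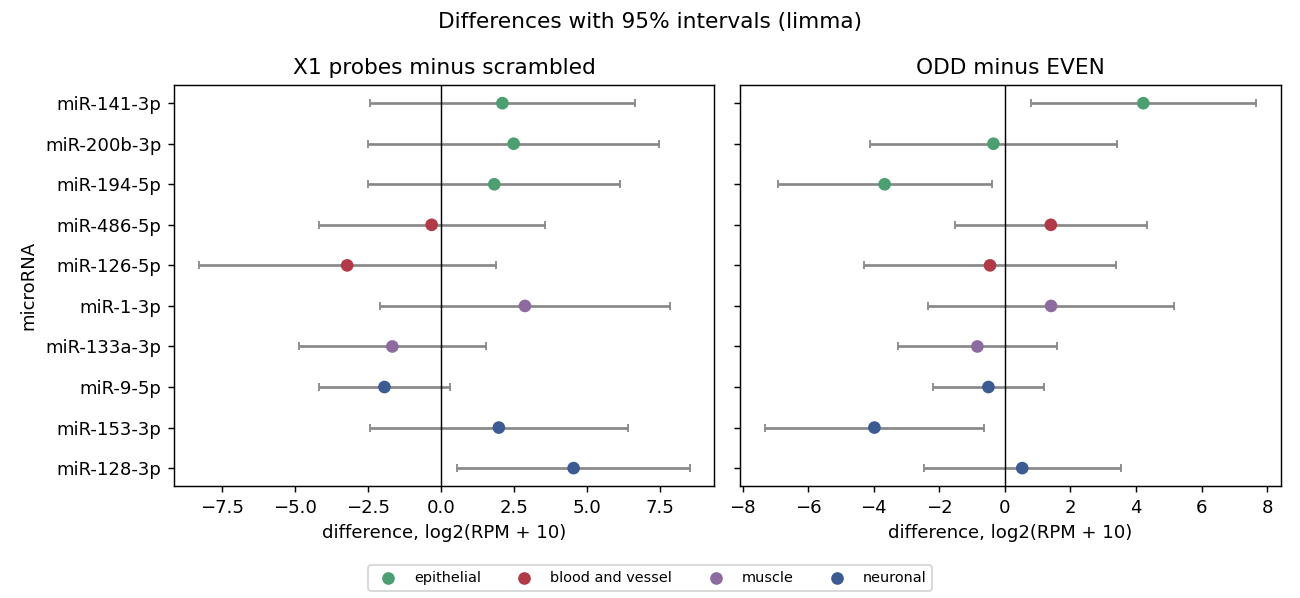
Differences on the log2(RPM + 10) scale with 95% intervals (limma) for X1 probes minus scrambled (left) and ODD minus EVEN (right), coloured by role. The interval excludes 0 for miR-128-3p on the left and for miR-141-3p, miR-194-5p and miR-153-3p on the right. None passed after adjustment. Those on the right entered the test through a single probe set and had to differ. On the left, miR-128-3p had 0 scrambled reads and could only come out higher.

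The summed level of the markers was also set beside a number that the descriptions carry, which is 9 on the captures of replicate 1, 10 on those of replicate 2, and 12 on those of replicate 3 and on the scrambled capture. The labels do not say what it marks, and the 3 libraries with number 12 are also the shallowest. Summed over the 10 markers, ODD replicate 3 had 2470 RPM and EVEN replicate 3 had 2727 RPM, against 2582 RPM in the scrambled library of the same number. The 4 other X1-probe libraries had 1109 to 1521 RPM. The totals under number 12 rest on 10 to 13 reads each, and their exact 95% intervals, which start at 1185, 1453 and 1335 RPM, overlap those of the 4 others. No test of this difference was made. Over all X1-probe libraries the mean was 1727 ± 693 RPM (SD, n = 6). Depth and number cannot be told apart in this difference, and scrambled probes were used under number 12 alone.

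Within number 12, miR-9-5p had 494 RPM in ODD replicate 3 and 419.6 RPM in EVEN replicate 3, against 1291 RPM with scrambled probes. miR-133a-3p had 494 and 629 RPM against 646 RPM, which is 2 and 3 reads against 3. miR-128-3p had 494 and 209.8 RPM, which is 2 and 1 reads, against 0.

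**Figure D4:**
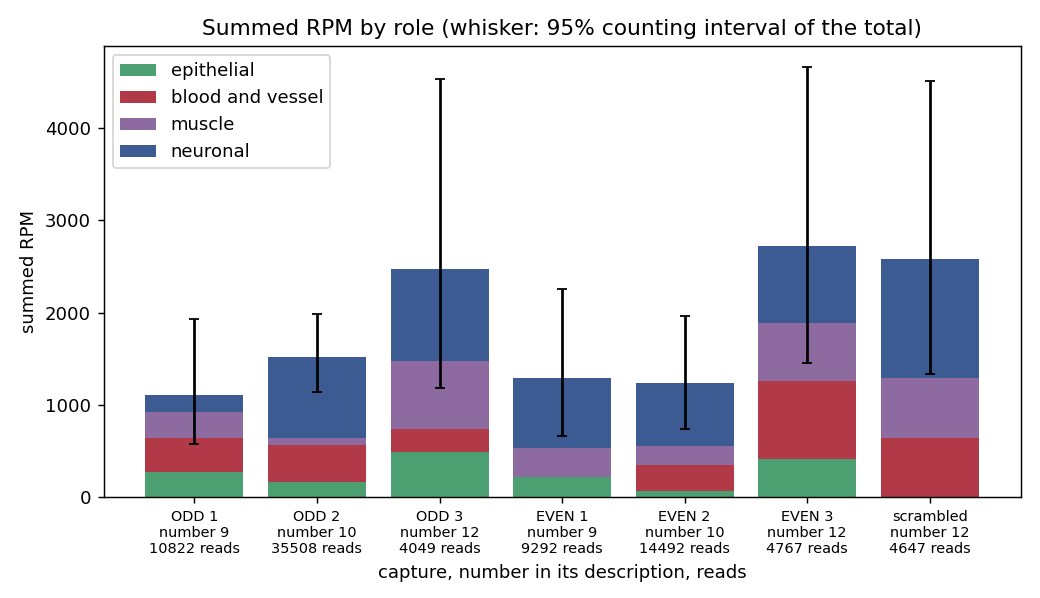
Summed RPM of the marker microRNAs by role in each capture, with the number in the capture's description and its reads; whiskers are exact 95% counting intervals of the total. The 3 captures with number 12 have totals of 2470 to 2727 RPM and the others 1109 to 1521 RPM.

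Relatives of the markers, taken from lists of the same tissues, had at most 14 reads each over all libraries, except miR-192-5p. This microRNA, which is encoded beside miR-194 and marks intestine, liver and kidney epithelium, had 1256 ± 271 RPM (101 reads, SD, n = 6) in X1-probe libraries, against 1291 RPM (6 reads) in the scrambled one. It had reads in all 7 libraries, and its log2 difference was -0.064 (limma adjusted p = 0.957). miR-194-5p itself had 3 reads. Of the 10 epithelial names listed, 3 were in the table, and the others were miR-205-5p, of squamous epithelium, with 3 reads and miR-215-5p, which shares a cluster with miR-194, with 4, all with X1 probes.

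Of the 8 blood and vessel relatives, 5 had reads, 9 in all, and each was at 0 reads in the scrambled library. Their X1-probe sums of 0 to 210 RPM lay under the scrambled floor of 646 RPM. The red cell microRNA miR-451a had 1 read in ODD replicate 1, against the 23 reads of miR-486-5p over the 7 libraries. miR-142-3p, of white blood cells, had 3 reads, all in the deepest library. miR-126-3p, the other arm of the miR-126 hairpin, had 2 reads against the 7 of miR-126-5p.

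Of the 12 neuronal relatives, 4 had reads, 26 in all and 0 in the scrambled library. Their X1-probe sums of 0 to 538 RPM also lay under the scrambled floor of 646 RPM. miR-132-3p, induced by neuronal activity, had 14 reads in 4 libraries, and miR-138-5p, of dendrites, 10 reads in 4 libraries. The defining neuronal microRNA miR-124-3p had 1 read, in ODD replicate 2, and miR-137 had 1 read, in ODD replicate 1. Of the 5 muscle relatives listed, 0 matched any of the 480 names. None of the tested relatives passed limma in either comparison, where 2 epithelial and 2 neuronal names were tested.

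The names most like the 3 markers with at least 20 reads were taken by the mean absolute difference of log2(RPM + 10) over the 7 libraries. For miR-9-5p they were miR-361-3p (0.49) and miR-29a-3p (0.62). miR-361-3p also had 6 reads in the scrambled library. For miR-128-3p they were miR-181a-3p (0.52) and miR-3180-5p (0.69), which also had 0 scrambled reads, and for miR-486-5p miR-4448 (0.65) and miR-19b-3p (0.83).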

How the data were processed

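Small RNA was sequenced from 3 ODD, 3 EVEN and 1 scrambled-probe capture, grouped by sample title. The authors deposited RPM for 498 rows of hairpin and mature name. The submitters' processing notes name the tools CASAVA (1.8) and cutadapt (1.2.1). Aligner, annotation and build: not given in the sources used here. Each deposited column sums to 1000000, and 100% of values were whole multiples of 1 read at a tolerance of 1e-06 reads, which gave depths of 4049 to 35508 reads. Because rows of 1 name can hold the same reads, the highest row per name was used.

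Differences were fitted with limma (3.58.1; R 4.3.3) to log2(RPM + 10). Each group had a mean, variances were moderated with a trend over abundance, and p-values were adjusted by Benjamini-Hochberg over the 242 names with at least 10 RPM in at least 3 of 7 libraries. The single scrambled library was taken to vary like the ODD and EVEN captures. The fit was also run on reads simulated with counting error only, where 40 names were changed in the ODD libraries. This covered ODD against EVEN alone, so the comparison with the scrambled library was not checked this way. All markers are named; relatives were named from lists, at most 4 by mean RPM, besides the 2 nearest names per marker of at least 20 reads. The markers and lists were chosen with earlier results of these data known. Alternatives covered the pseudocount, filter, hairpin rows, replicate block and left-out captures.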

Additional observations from a re-analysis of the deposited data

Results flagged for a closer look

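Among 11 values scanned over the 6 X1-probe libraries (the 10 markers and their sum), 2 had a library far from the others. The gap to the next library was 0.626 of the range for miR-141-3p and 0.629 for miR-9-5p, against a cutoff of 0.625. A read is worth a different RPM in each library, so no chance rate can be given for such gaps. miR-141-3p in ODD replicate 3, at 494 RPM, stood above the rest, the next being 185 RPM in ODD replicate 1; both are 2 reads. miR-9-5p in ODD replicate 1, at 92.4 RPM (1 read), stood below the rest, the next being 345 RPM in EVEN replicate 2.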

How the results depend on the processing

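No marker passed limma in either comparison under any setting run. Of 98 log2 differences recomputed per comparison, 95 kept their direction for X1 probes against scrambled and 87 for ODD against EVEN. Many of these were fixed in advance. Markers with 0 scrambled reads could not turn in the first comparison, nor those with 0 reads throughout 1 probe set in the second. For X1 probes, miR-486-5p turned to 0.065 at a pseudocount of 100 RPM and 0.85 with a replicate block, and ran from -0.94 to 0.56 with single captures left out. For ODD against EVEN, leaving out single captures gave -1.68 to 0.82 for miR-200b-3p, -0.34 to 2.66 for miR-486-5p, -1.69 to 0.56 for miR-126-5p, -1.69 to 0.18 for miR-133a-3p and -0.90 to 0.25 for miR-9-5p. Without replicate 3 of both probe sets, chosen after seeing the data, miR-200b-3p was 1.71, miR-126-5p 1.55 and miR-1-3p -0.23. The cause was not tested. Leaving out any ODD capture left miR-141-3p untested, and any EVEN capture miR-194-5p and miR-153-3p, since fewer libraries then reach the filter. Over all names, the 2 calls for X1 probes became 12 with no filter (3 higher and 9 lower, 480 names) and 0 with the replicate block. The 1 call for ODD against EVEN became 0 with no filter and 0 with the replicate block, and 0 to 3 with single captures left out: 0 without ODD replicate 1 or ODD replicate 3, 3 without EVEN replicate 1 and 2 without EVEN replicate 2. Deviations of same-numbered ODD and EVEN captures had correlations of -0.044, 0.073 and 0.019 over 242 names. With so few reads for most names, this cannot tell whether the captures were paired. The planned count test on the recovered reads was not run. Depth limits every marker: at 0 reads, the floor of 3 reads is 84.5 to 741 RPM across the 7 libraries.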
